A study of Homo sapiens with 3 samples.

Results

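The SMAD and ID genes are 10 mediators and targets of TGF-beta and BMP signalling: ID1, ID2, ID3, SMAD3, SMAD4, SMAD6, SMAD7, SKIL, TGIF1 and BAMBI. They were picked by gene symbol from an expression table of 31907 rows, and all 10 were present and passed the filter on low values. The cells were NCI-N87, an established human gastric cancer line, transfected with Lipofectamine 2000. The knockdown cells received siRNA directed at the forkhead factor gene FOXP4. They gave 2 libraries, 1 with siRNA1 and 1 with siRNA2, which are different reagents and not repeats of 1 treatment. The control, labelled WT, was 1 library from cells given a scrambled siRNA. Each library received a different siRNA, and the labels do not say whether the cultures were grown independently. The p-values rest on the spread between the siRNA1 and siRNA2 libraries. In that spread, differences between reagents and technical differences cannot be told apart. All libraries came from 1 cell line, and transfection time and siRNA dose are not given in the sources used here.

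TGF-beta family ligands bind paired receptor kinases, which phosphorylate receptor-regulated SMAD proteins. SMAD3 serves the TGF-beta and activin branch, and SMAD4 is the partner shared by all branches. SMAD6 and SMAD7 are inhibitory SMADs that close the feedback loop, SKIL and TGIF1 are nuclear corepressors of SMAD complexes, and BAMBI is a decoy receptor without a kinase domain. ID1, ID2 and ID3 are classical BMP targets. Their proteins dimerise with basic helix-loop-helix factors and keep them off DNA, which in epithelia is linked to proliferation and delayed differentiation. In gastric epithelium TGF-beta is known mainly as a growth-restraining signal.

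Values are TPM, in which reads are divided by transcript length and scaled to a fixed library total, so levels of different genes can be set side by side. Each value is 1 library. Depth estimated from the steps between low values was close, at about 18300000 reads with siRNA1, 18800000 with siRNA2 and 18100000 with the scrambled siRNA. FOXP4 itself measured 51.6 TPM with siRNA1 and 36.7 TPM with siRNA2, against 93.9 TPM with the scrambled siRNA, log2 folds of -0.85 and -1.33. Folds followed GC content in the siRNA1 library, with a Spearman correlation of -0.61 across 12302 genes, which share their libraries, against -0.10 with siRNA2. With that trend removed the FOXP4 folds were -0.20 and -1.02, so the library labelled siRNA1 gives a weak check of its label. The libraries also differed in mitochondrially encoded mRNA, which took 8.05% of TPM with siRNA1, 1.41% with siRNA2 and 5.15% with the scrambled siRNA. Epithelial markers were present at uneven levels, with EPCAM at 1150.2, 813 and 1136 TPM in the same order. KRT8 measured 1025, 1930 and 1733 TPM, KRT18 199, 361 and 202 TPM, and KRT19 781, 1616 and 1343 TPM. ERBB2 measured 58.9, 63.9 and 89.8 TPM, CEACAM5 14.5, 43.6 and 16.6 TPM, and CDH1 5.86, 11.6 and 4.16 TPM. Of 19 markers of immune, fibroblast, endothelial and neuroendocrine cells, 16 were in the table and 2 averaged 1 TPM or more. Those were COL1A1 at 6.42, 22.3 and 13.1 TPM and CSF1R at 2.26, 3.69 and 4.33 TPM, and CD68, CD14, COL1A2, DCN and LUM were among 6 listed at 0 in all 3 libraries. The summed level of these markers was 11.1, 27.8 and 18.8 TPM, and their part in the results was not tested.

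The members did not share 1 direction against the scrambled library. SKIL and TGIF1, both corepressors, were higher with both siRNAs, and ID1, ID2, ID3 and SMAD6 were lower with both. In TPM as deposited SMAD3 was well above the control with siRNA2 alone, and SMAD7 lay close to it with both. SMAD4 was 1.36 times the control with siRNA1 and lay close to it with siRNA2, and BAMBI was higher with siRNA1 and lower with siRNA2. With the GC trend removed the log2 folds of SMAD7 were 0.50 and 0.46 and those of SMAD4 0.050 and 0.14. In bulk RNA, fewer cells expressing a gene and less RNA per cell cannot be told apart. In limma, fitted over the 14429 genes that averaged 1 TPM or more, 0 of the 10 passed an adjusted p of 0.05 (adjusted p = 0.9999 for each, n = 2 siRNAs against 1 library). Limma called 0 of all genes tested as well, so percent called in the background was 0, with 428 genes at an unadjusted p under 0.05. SKIL was the 1 member below that unadjusted level (limma's unadjusted p = 0.039, adjusted p = 0.9999). Its 1 residual degree of freedom came from how far the siRNAs differ, and the lone control was assumed to vary as they do.

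**Figure D1:**
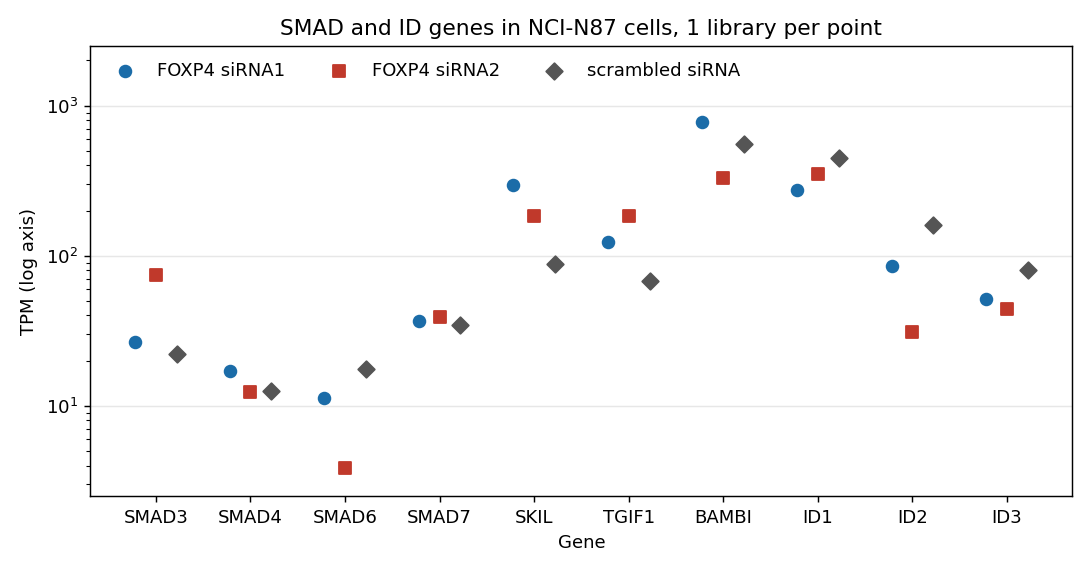
TPM of each SMAD and ID gene on a log axis, with 1 point per library for FOXP4 siRNA1, FOXP4 siRNA2 and the scrambled siRNA. SKIL and TGIF1 lie above their control points with both siRNAs, and ID1, ID2, ID3 and SMAD6 lie below theirs, with SMAD6 reaching 3.86 TPM with siRNA2.

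A size criterion was also applied, namely a difference of 2-fold or more on the log2(TPM + 1) scale in the same direction with both siRNAs. Of the 10 members, 1 met it as higher, SKIL, where 2.52% of all genes tested did. Its siRNA2 fold of 1.05 lay close to the limit, and with mitochondrially encoded genes left out it was 0.99, so that 0 members then met the criterion. None met it as lower, where 2.38% of all genes did. By direction alone 4 members were higher with both siRNAs, against 24.5% of all genes. Another 4 were lower with both, against 38.1% of all genes, and 2 were split. With siRNA1 considered by itself, 1 member lay 2-fold or more above the control and 0 lay that far below it, where the shares of all genes were 5.27% and 6%. With siRNA2, 3 members lay 2-fold or more above it and 2 lay that far below it, where the shares of all genes were 6.88% and 13.2%. The median log2 fold of the members was 0.17 with siRNA1 and -0.20 with siRNA2, and that of all genes tested was 0.028 and -0.24. The members' siRNA2 median was 0.074 after median-of-ratios rescaling and 0.037 with the GC trend removed, so its sign depended on the scaling. Both folds share the 1 scrambled library.

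**Figure D2:**
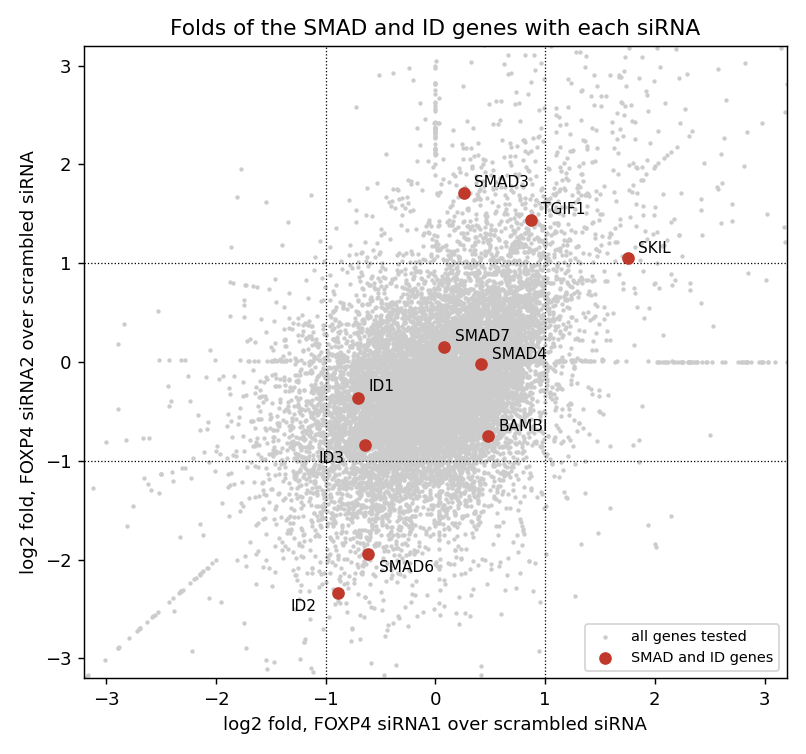
Log2 fold over the scrambled siRNA with siRNA1 (x axis) and siRNA2 (y axis), for all genes tested in grey and the SMAD and ID genes in red. Dotted lines mark 2-fold, 103 genes lie beyond the axes, and SKIL is the member past 2-fold with both siRNAs, at 1.75 and 1.05 (0.99 with siRNA2 when mitochondrially encoded genes are left out).

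The corepressors had the highest mean fold over the 2 siRNAs in TPM as deposited, while with siRNA2 alone SMAD3 was higher than both. SKIL (ENSG00000136603.13, chromosome 3, 170357678 to 170396835, plus strand, GRCh38) encodes SnoN, which binds SMAD complexes and represses their targets, and is itself induced by TGF-beta. It measured 297 TPM with siRNA1 and 183 TPM with siRNA2, against 87.5 TPM with the scrambled siRNA. Both knockdown libraries were above the control, and the siRNA1 library was the higher of the pair. These levels rest on about 10529, 6590 and 3205 reads, so the ratios to the control were 3.39 (counting interval 3.26 to 3.53) and 2.09 (2.0 to 2.18). Such intervals are exact binomial 95% intervals on estimated reads and cover counting error only. The log2 folds were 1.75 and 1.05, a mean of 1.40 ± 0.49 (SD, n = 2), with a limma standard error of 0.52. Among all genes tested these folds lay at percentile 98.5 with siRNA1 and 93.7 with siRNA2.

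The promoter of SKIL is shown because SKIL was the member past 2-fold with both siRNAs in TPM as deposited. The window runs from 250 bases before to 50 bases after the RefSeq start, on chr3:170357465-170357764, plus strand, GRCh38.p14. Capitals mark, in order, the GC-rich SMAD element GGCGCC and the sequence TGACGTCA, the cAMP response element bound by CREB and ATF factors.
SKIL: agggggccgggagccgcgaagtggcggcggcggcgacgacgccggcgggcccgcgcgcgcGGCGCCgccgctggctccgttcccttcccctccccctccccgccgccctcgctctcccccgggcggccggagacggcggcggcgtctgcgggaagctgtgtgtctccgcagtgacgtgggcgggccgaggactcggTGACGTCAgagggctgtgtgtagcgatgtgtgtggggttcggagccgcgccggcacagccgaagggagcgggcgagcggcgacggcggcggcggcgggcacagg
Of 35116 RefSeq windows of the same length, 1.85% held TGACGTCA and 19.2% held GGCGCC, on either strand. In SKIL the TGACGTCA began at position -54 from the start. The short SMAD box CAGAC, held by 45.3% of windows and not set in capitals, began at -107. GGCGCC also occurred in windows of BAMBI, SMAD3 and SMAD4, which did not meet the size criterion. These matches describe letters and not binding. The motifs were chosen after a first search, so the shares of windows are no measure of how unusual a match is. The forkhead core TGTTTAC, searched on both strands, was found in 3.42% of windows. It had no match in any of the 22 windows of the 10 members. Only that exact sequence was searched, so these windows may hold variants of the forkhead site.

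TGIF1 (ENSG00000177426.20, chromosome 18, 3411608 to 3459978, plus strand) encodes a homeodomain protein that recruits histone deacetylases to SMAD complexes. It measured 124 TPM with siRNA1 and 185 TPM with siRNA2, against 67.5 TPM with the scrambled siRNA. Here siRNA2 was the higher of the pair, the other way round from SKIL. The log2 folds were 0.87 and 1.44, a mean of 1.15 ± 0.40 (SD, n = 2), and the unadjusted limma p was 0.063 (adjusted p = 0.9999). The siRNA1 fold missed the 2-fold line, so TGIF1 did not meet the size criterion. RefSeq gives TGIF1 windows at 7 starts, some of them overlapping. Of these, 3 held the pattern TGANTCA, where N is any base, found in 7.71% of all windows. This pattern is looser than the AP-1 site, which reads TGACTCA or TGAGTCA. The TGIF1 matches read TGAATCA or TGATTCA, so none was that site. Among windows of the members, TGAGTCA occurred in a SMAD3 window, beginning at position -56. TGIF1 and SKIL are poor in GC, at 41.3% and 33.4% of the longest transcript. With the GC trend given above removed, the siRNA1 folds were 0.50 for TGIF1 and 1.17 for SKIL. With siRNA2 they were then 1.60 and 1.11.

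The ID genes were lower with both siRNAs, each to a different degree. ID2 (ENSG00000115738.9, chromosome 2, 8678845 to 8684453, plus strand) stood at 85.6 TPM with siRNA1 and 30.8 TPM with siRNA2, against 159.5 TPM with the scrambled siRNA. Both knockdown libraries were below the control, at 53.7% and 19.3% of its level. The siRNA2 value rested on about 315 reads, and its ratio to the control had a counting interval of 0.171 to 0.218. The log2 folds were -0.89 and -2.33, a mean of -1.61 ± 1.02 (SD, n = 2), with an unadjusted limma p of 0.066 (adjusted p = 0.9999). The siRNA2 fold lay at percentile 0.814 of all genes tested, the lowest of the members, and the siRNA1 fold at percentile 7.88. The antisense gene ID2-AS1 overlaps ID2 and measured 1.28, 0.210 and 1.13 TPM. Whether reads were counted by strand is not given in the sources used here.

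ID1 (ENSG00000125968.8, chromosome 20, 31605283 to 31606515, plus strand) was the most abundant ID gene in every library. It measured 276 TPM with siRNA1 and 349 TPM with siRNA2, against 451 TPM with the scrambled siRNA. Both knockdown libraries were below the control, with siRNA1 the lower, which is the reverse of ID2. Its log2 folds were -0.71 and -0.37, a mean of -0.54 ± 0.24 (SD, n = 2). The siRNA2 fold of ID1 lay at percentile 42.1 of all genes, close to the middle, since the median of all genes with siRNA2 was -0.24. With median-of-ratios rescaling, which moved that median up by 0.25, the siRNA2 fold was -0.088. ID1 is rich in GC at 58.6%, and with the GC trend removed its folds were -0.29 and -0.064.

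ID3 (ENSG00000117318.8, chromosome 1, 23557918 to 23559794, minus strand) stood at 51.3 TPM with siRNA1 and 44.4 TPM with siRNA2, against 80.5 TPM with the scrambled siRNA. The knockdown libraries gave nearly the same level here, on about 420 and 370 reads against 681. Its log2 folds were -0.64 and -0.84, a mean of -0.74 ± 0.14 (SD, n = 2). With the GC trend removed the folds of ID3, which has 57.2% GC, were -0.29 and -0.53, and those of ID2, with 53.3% GC, were -0.71 and -2.04. ID1, ID2 and ID3 together took 413 TPM with siRNA1 and 424 TPM with siRNA2, against 691 TPM with the scrambled siRNA. In TPM as deposited the summed level was thus nearly equal with the 2 siRNAs, while its make-up was not. The near equality belongs to that scale, since rescaling moves the siRNA2 library against the siRNA1 library. After median-of-ratios rescaling the folds of ID1, the largest part of the sum, were -0.72 and -0.088. ID2 was 20.8% of the sum with siRNA1 and 7.26% with siRNA2, against 23.1% in the control, and ID1 was 66.8% and 82.3%, against 65.3%.

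The start regions of the ID genes are shown because the 3 genes lay below the control with both siRNAs, as did 38.1% of all genes tested.
ID1: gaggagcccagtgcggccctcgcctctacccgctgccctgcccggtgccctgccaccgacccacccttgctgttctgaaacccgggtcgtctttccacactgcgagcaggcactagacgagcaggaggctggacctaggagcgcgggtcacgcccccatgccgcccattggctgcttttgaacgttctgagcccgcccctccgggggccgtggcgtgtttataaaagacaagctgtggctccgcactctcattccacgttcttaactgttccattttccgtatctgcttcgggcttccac
ID2: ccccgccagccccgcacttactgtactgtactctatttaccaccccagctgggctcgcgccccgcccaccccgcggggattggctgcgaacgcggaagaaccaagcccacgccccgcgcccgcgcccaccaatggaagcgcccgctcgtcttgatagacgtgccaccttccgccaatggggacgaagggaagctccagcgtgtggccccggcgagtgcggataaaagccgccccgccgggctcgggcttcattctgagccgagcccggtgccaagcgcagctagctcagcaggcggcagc
ID3: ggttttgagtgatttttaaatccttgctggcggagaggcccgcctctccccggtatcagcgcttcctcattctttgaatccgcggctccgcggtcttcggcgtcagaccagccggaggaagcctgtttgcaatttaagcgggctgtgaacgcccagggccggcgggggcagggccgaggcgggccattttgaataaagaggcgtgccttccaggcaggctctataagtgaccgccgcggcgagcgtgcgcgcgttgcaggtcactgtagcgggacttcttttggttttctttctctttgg
The windows are chr20:31605039-31605338 and chr2:8681806-8682105 on the plus strand and chr1:23559452-23559751 on the minus strand, from RefSeq on GRCh38.p14. None has capitals, because the motifs marked in that way had no match on either strand. These were the SMAD palindrome GTCTAGAC, the GC-rich SMAD element, the exact forkhead core, the AP-1 site and the cAMP response element. Variants of the forkhead core were not searched. The shorter SMAD box CAGAC, present in 45.3% of all windows and not set in capitals, was found in the ID3 window and not in those of ID1 and ID2. The best known BMP-responsive elements of ID1 lie further upstream, outside this window. GC content of the windows was 62.7%, 69% and 59.7%.

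SMAD3 (ENSG00000166949.15, chromosome 15, 67063763 to 67195195, plus strand) measured 26.5 TPM with siRNA1 and 74.7 TPM with siRNA2, against 22.1 TPM with the scrambled siRNA. The siRNA2 library stood apart from the other two, with a ratio to the control of 3.39 (counting interval 3.15 to 3.65), and siRNA1 gave 1.20 (1.10 to 1.31). Its log2 folds were 0.26 and 1.72, a mean of 0.99 ± 1.03 (SD, n = 2), so the spread between siRNAs exceeded the mean. SMAD4 (ENSG00000141646.13, chromosome 18, 51028394 to 51085045, plus strand) measured 17.2 TPM with siRNA1 and 12.4 TPM with siRNA2, against 12.6 TPM with the scrambled siRNA. In TPM as deposited its ratio with siRNA2 was 0.982 (counting interval 0.887 to 1.09), so no difference beyond counting error was seen on that scale. The siRNA2 log2 fold was -0.024 as deposited, 0.24 after median-of-ratios rescaling and 0.28 after quantile normalization. With siRNA1 the ratio was 1.36 (1.24 to 1.5), a log2 fold of 0.42. With the GC trend removed the folds were 0.050 with siRNA1 and 0.14 with siRNA2.

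The inhibitory SMADs behaved differently from each other. SMAD6 (ENSG00000137834.14, chromosome 15, 66702228 to 66782848, plus strand), which acts mainly on the BMP branch, measured 11.2 TPM with siRNA1 and 3.86 TPM with siRNA2, against 17.7 TPM with the scrambled siRNA. Both knockdown libraries were below the control, and the siRNA2 library held 21.8% of its level on about 153 reads. The log2 folds were -0.61 and -1.94, a mean of -1.28 ± 0.94 (SD, n = 2). SMAD6 is rich in GC at 58.9%, and with the GC trend removed the folds were -0.18 and -1.64. SMAD7 (ENSG00000101665.9, chromosome 18, 48919853 to 48952052, minus strand), which acts on both branches, measured 36.9 TPM with siRNA1 and 38.9 TPM with siRNA2, against 34.8 TPM with the scrambled siRNA. The 3 libraries nearly coincided, with ratios of 1.06 (counting interval 0.961 to 1.17) and 1.12 (1.02 to 1.23). SMAD7 had the smallest spread of the members, a mean log2 fold of 0.12 ± 0.054 (SD, n = 2). The amount of SMAD7 per unit of SMAD6 was 3.28 with siRNA1 and 10.1 with siRNA2, against 1.97 with the scrambled siRNA. SMAD7 is as rich in GC as SMAD6, at 58.7%, and with the GC trend removed its folds were 0.50 and 0.46.

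The start region of SMAD6 is shown because it holds GTCTAGAC, the palindrome to which purified SMAD3 and SMAD4 bind, in capitals. The window is chr15:66701986-66702285, plus strand, from RefSeq on GRCh38.p14.
SMAD6: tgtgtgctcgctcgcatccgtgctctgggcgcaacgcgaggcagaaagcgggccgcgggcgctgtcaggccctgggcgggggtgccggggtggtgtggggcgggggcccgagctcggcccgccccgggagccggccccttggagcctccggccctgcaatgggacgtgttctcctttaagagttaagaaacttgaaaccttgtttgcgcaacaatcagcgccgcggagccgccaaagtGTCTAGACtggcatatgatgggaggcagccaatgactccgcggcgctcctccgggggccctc
The palindrome began at position -12 from the start and occurred in 0.202% of the 35116 windows. It was absent from the 3 SMAD7 windows, of which 2 held the SMAD box CAGAC. The motifs were chosen after a first search and the SMAD6 window was picked for its match. The share of windows is therefore no measure of how unusual the match is, and binding was not tested.

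BAMBI (ENSG00000095739.10, chromosome 10, 28677342 to 28682939, plus strand), also a target of Wnt signalling, was the most abundant member in the siRNA1 and scrambled libraries. It measured 774 TPM with siRNA1 and 329.8 TPM with siRNA2, against 555 TPM with the scrambled siRNA. The siRNAs lay on opposite sides of the control, with ratios of 1.39 (counting interval 1.35 to 1.44) and 0.594 (0.570 to 0.620). Its log2 folds of 0.48 and -0.75 kept their signs under median-of-ratios rescaling, at 0.47 and -0.47, and with the GC trend removed, at 0.56 and -0.48. The siRNA2 library was also the one with the least mitochondrially encoded mRNA, as given above. The part of that difference in BAMBI, SMAD3, ID2 and SMAD6 was not tested.

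**Figure D3:**
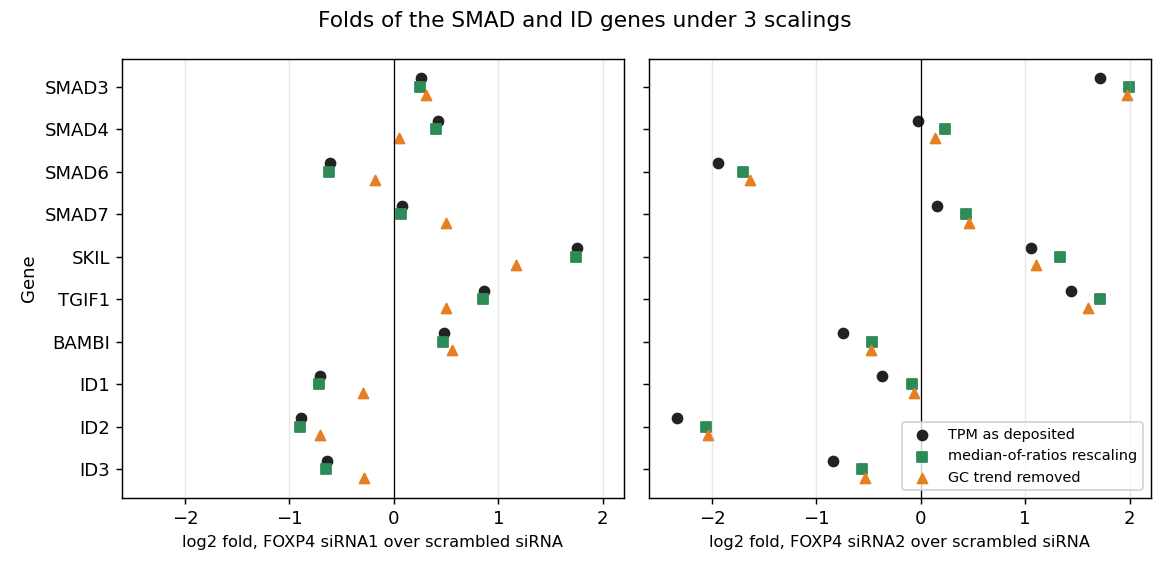
Log2 fold of each SMAD and ID gene over the scrambled siRNA with siRNA1 (left) and siRNA2 (right), for TPM as deposited, after median-of-ratios rescaling and with the GC trend removed. The siRNA2 fold of SMAD4 is -0.024 as deposited, 0.24 after rescaling and 0.14 with the GC trend removed, and the other signs hold in these settings.

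The order of the members by level was different in each library. With the scrambled siRNA it ran BAMBI, ID1, ID2, SKIL, ID3, TGIF1, SMAD7, SMAD3, SMAD6 and SMAD4. With siRNA1, SKIL and TGIF1 both moved ahead of ID2. With siRNA2, ID2 ranked below SMAD3, ID3 and SMAD7, and ID1 stood first. TGIF1 and SKIL were next to each other with siRNA2, at 185 and 183 TPM. Single libraries give no spread by which to tell such neighbours apart. SMAD6 was the lowest member with either FOXP4 siRNA, while SMAD4 was the lowest with the scrambled siRNA.

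Directly between the siRNAs, on log2(TPM + 1), the largest gaps among the members were those of SMAD3, ID2, SMAD6 and BAMBI. SMAD3 was 1.46 higher with siRNA2 than with siRNA1, at least 2-fold, as were 5.99% of all genes tested. ID2, SMAD6 and BAMBI were 1.44, 1.33 and 1.23 lower, at least 2-fold, as were 12.8% of all genes. These are differences of 1 library from 1 library, with no test.

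Likeness was measured as the distance between pairs of log2 folds, over 2 siRNAs. It was taken over 77 other genes, namely the members and the 68 tested genes of a wider pathway list. Any nearest gene was thus bound to come from the 2 pathways, and both folds share the 1 scrambled library. ID2 and SMAD6 were each other's nearest gene, at a distance of 0.48. ID1 lay nearest to MYC, at 0.010, and then to TCF3, at 0.079. SMAD3 lay nearest to SKI, the paralog of SKIL, at 0.19, and then to BMP2, at 0.37. SKIL itself lay nearest to KLF10, a TGF-beta early response gene, at 0.67, and TGIF1 nearest to the deubiquitinase gene USP9X, at 0.32. BAMBI lay nearest to ZFYVE9, the SMAD anchor, at 0.12, and SMAD7 nearest to LTBP1, at 0.12. The nearest gene to SMAD4 was CDKN1A, at 0.073, and to ID3 the receptor gene ACVR2B, at 0.42.

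Of the wider list of 104 genes of the 2 pathways, 102 were in the table and 68 had a mean of at least 1 TPM. Limma called 0 of them as higher and 0 as lower (smallest adjusted p = 0.9999), with 5 at an unadjusted p under 0.05. By size, 6 lay 2-fold or more above the control with both siRNAs and 0 lay that far below it, against the 2.52% and 2.38% of all genes given above. The list's median log2 fold was 0.16 with siRNA1 and 0.12 with siRNA2, against 0.028 and -0.24 for all genes. The list, like the members, was chosen with results of these data known.

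Of the 6 genes past 2-fold, 5 were targets. Among them CDKN2B, which encodes the p15 inhibitor of CDK4 and CDK6, measured 92.7 and 147 TPM, against 19.2 TPM. KLF10 measured 257 and 244 TPM, against 73.3 TPM, and was the most even of these genes, with log2 folds of 1.80 and 1.72. JUNB, an AP-1 subunit, measured 301 and 685 TPM, against 105 TPM. HEY1, a target of BMP and Notch, measured 6.05 and 36.9 TPM, against 1.91 TPM. At the lower end of the targets were SPHK1, with log2 folds of -1.28 and -0.021, and MYC, with -0.70 and -0.37. With the GC trend removed SPHK1 had -0.47 and 0.31 and MYC -0.49 and -0.072. The sixth gene was the divergent ligand GDF15, at 3193 and 11713 TPM, against 1012 TPM.

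Limma restricted to the 9129 genes that averaged 10 TPM or more called 93 of them, 1.02% of those tested, and on protein-coding genes alone it called 0.848%. In these fits the variance came wholly from the trend over all genes, and a gene's own replicates had no say in it. Each called 0 of the 10 members, in the first with the smallest adjusted p at 0.24 for ID2 and 0.51 for SKIL. Among the 57 pathway genes of the 10 TPM fit it called 3, all higher. They included CDKN2B (adjusted p = 0.0013) and JUNB (adjusted p = 0.031).

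**Figure D4:**
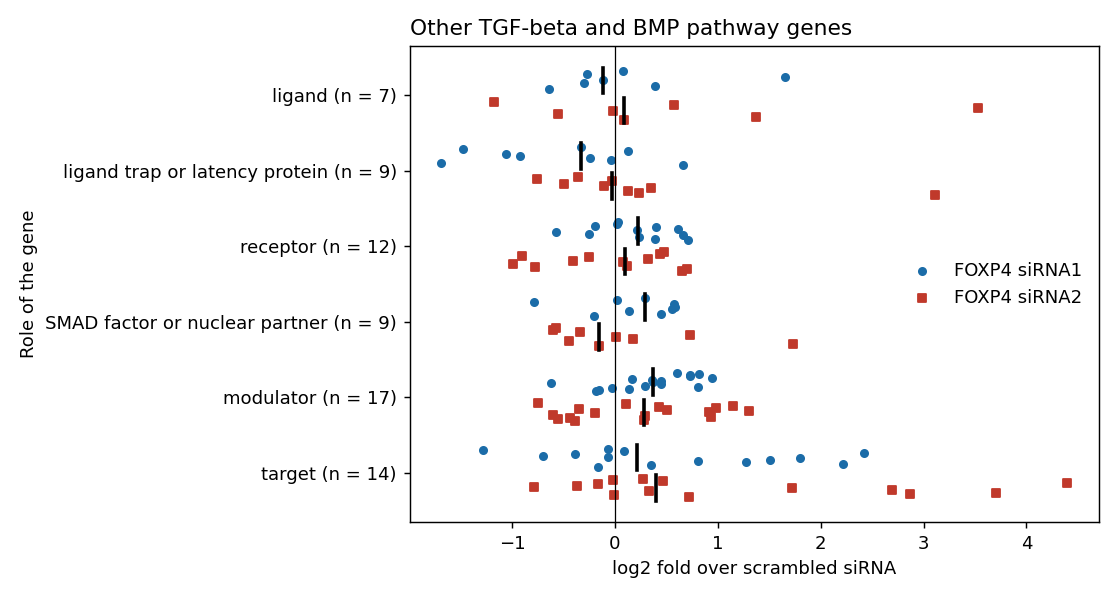
Log2 fold over the scrambled siRNA of the 68 other TGF-beta and BMP pathway genes, grouped by role, with 1 point per gene and siRNA and a black bar at each median. The targets reach the highest folds with either siRNA, and on this log2(TPM + 1) scale the receptors stay within 2-fold of the control.

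None of the 12 tested receptors was 2-fold from the control with either siRNA on the log2(TPM + 1) scale. Without the added 1, ACVR2B and ACVR1C lay more than 2-fold below it with siRNA2, at 43.9% and 40.0% of the control TPM. The BMP receptor gene ACVR1 had log2 folds of 0.71 and 0.65 and the activin receptor gene ACVR1B 0.38 and 0.70, while ACVR2B had -0.25 and -0.99 and the TGF-beta receptor gene TGFBR1 -0.20 and -0.91. Of the ligands, BMP2 measured 14.2 and 29 TPM, against 10.6 TPM, BMP4 32.4 and 27.0 TPM, against 40.3 TPM, and TGFB3 8.27 and 2.90 TPM, against 7.78 TPM. Of the traps, NOG, which encodes the BMP antagonist noggin, measured 17.1 and 28.9 TPM, against 49.4 TPM, and LTBP4 47.3 and 70.6 TPM, against 99.7 TPM. The log2 folds of LTBP4 were -1.06 and -0.49, and -0.18 and -0.15 with the GC trend removed. Those of NOG were -1.48 and -0.76, and then -1.02 and -0.45. FST, which encodes the activin antagonist follistatin, measured 2.74 and 19.3 TPM, against 1.36 TPM, where it rested on about 19 reads. LTBP2 had log2 folds of -0.24 and 0.35.

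Among nuclear partners, SKI measured 120 and 293 TPM, against 87.7 TPM, so its difference was mostly with siRNA2, as for SMAD3. The E proteins, which the ID proteins sequester, were split by gene. TCF3 measured 88.4 and 120 TPM, against 152.8 TPM, TCF12 58.7 and 65.1 TPM, against 38.95 TPM, and TCF4 stayed under 2 TPM in all 3 libraries. With the GC trend removed the TCF3 folds were -0.23 and -0.031, and those of TCF12 were 0.20 and 0.88. Of the modulators, TRIM33, a SMAD4 regulator, had log2 folds of 0.94 and 0.98 and USP9X, which deubiquitinates SMAD4, 0.73 and 1.15. At the other end PPP1CA had -0.62 and -0.20 and CTDSP1 -0.19 and -0.39. With the GC trend removed PPP1CA had -0.048 and 0.11 and CTDSP1 0.40 and -0.079. TRIM33 then had 0.49 and 1.10 and USP9X 0.34 and 1.30.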

How the data were processed

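The authors deposited 1 table of TPM for 3 poly(A) libraries, named by gene symbol, on genome build GRCh38 per the submitters' processing notes. No quantifier or annotation is named in the sources used here. The members and lists were chosen with earlier results of these data known.

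Values were compared as log2(TPM + 1), which understates folds of low genes, for the 14429 genes that averaged 1 TPM or more. The test was limma 3.58.1 (R 4.3.3), its variances trended on intensity, with Benjamini-Hochberg adjustment over all genes and a threshold of 0.05. The fit was also run on simulated data with an equal spread for every gene, smaller than that between these siRNAs. That run therefore does not show how well limma detects differences here. Exon lengths, positions and GC content came from GENCODE 29. Reads were estimated from the step of TPM times exon length, and 92.2% to 92.7% of low values (under 2 TPM, at most 10 reads) lay within 0.1 of a whole read. The GC trend was a lowess curve of each fold on GC content of the longest transcript. Named pathway genes were those 2-fold from the control with both siRNAs, the 2 highest and 2 lowest of each role, and those nearest to a member, with the second nearest given for ID1 and SMAD3 alone. Promoters came from RefSeq, and motifs were chosen after a first search. Alternatives were other pseudocounts, filters and scalings, GC correction, protein-coding genes alone, and leaving out each siRNA. The values of 1 pathway gene are not reported here.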

Additional observations from a re-analysis of the deposited data

How the results depend on the processing

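No member passed limma in any fit run, which were those with pseudocounts of 0.1 and 5, without a filter, at 10 TPM, under median-of-ratios and quantile scaling, without mitochondrial genes, with GC correction and on protein-coding genes. Limma calls over all genes were 0 as reported, 93 among genes averaging 10 TPM or more, 92 among protein-coding genes and 9 without mitochondrial genes. Without mitochondrial genes the siRNA2 fold of SKIL was 0.99, so 0 members were 2-fold higher with both siRNAs. The members' median with siRNA2 was 0.074 under median-of-ratios rescaling and 0.037 with the GC trend removed. With siRNA2 alone, 3 members were at least 2-fold higher and 2 lower, and with siRNA1 alone 1 and 0. For pathway genes the counts with siRNA2 alone were 11 and 1, and with siRNA1 alone 6 and 4. Leaving out an siRNA left no residual degree of freedom and so no test. Of 160 member folds under other settings 14 moved by more than the SD between siRNAs, most with the GC trend removed, and 3 changed sign, all SMAD4 with siRNA2. No paired analysis was possible because the control was 1 library. Depth limits SMAD6 most, at about 153 reads with siRNA2.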
